A study of Mus musculus with 6 samples.

Results

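Retrocopies are copies of a gene that were made from its spliced mRNA and inserted elsewhere in the genome, so that they lack the introns of the parent gene. Described here are 4 metabolic genes and 4 such copies for which reads were counted in bone marrow-derived mast cells (BMMCs): Eno1 with Eno1b, Ahcy with Gm4737, Atp6v0c with Atp6v0c-ps2, and Amd1 with Amd2. These 8 genes were taken from the 35297 genes that could be matched to the deposited transcripts, 12461 of which had enough reads for a test. They were chosen because gene and copy differed between the strains in these same libraries. Their values are therefore given as a description, with no test, and only other genes of the same pathways were tested, in lists that were also drawn up with earlier results of these data known.

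The mice were of the strains BALB/c and C57BL/6, wild type and naive, and their bone marrow was grown into BMMCs with the cytokines IL-3 and IL-9, stem cell factor and TGF-β1. RNA was taken on day 20, and 3 libraries per strain were analysed: S9, S10 and S11 from BALB/c and S12, S13 and S14 from C57BL/6. The mRNA libraries were strand-specific and read from both ends, and between 28273365 and 37100869 estimated reads per library lay on matched genes. The study compared the strains to learn whether their mast cells differ in content. The age of the donor mice is not given in the sources used here, and the sample labels do not say whether the 3 libraries of a strain came from separate mice. The study calls them biological replicates. The p-values below measure the spread between these libraries, and whether it covers that between mice is not given in the sources used here.

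The mast cell label was checked against marker genes. All 10 mast cell markers had reads, and their summed level was between 28405 and 31381 CPM (reads scaled to the library size) in BALB/c and between 31625 and 33639 CPM in C57BL/6. Tpsb2 (818 to 1146 against 4834 to 5452 CPM) and Hdc (1.76 to 2.82 against 4.41 to 5.93 CPM) were higher in C57BL/6. Kit, Fcer1a, Ms4a2, Fcer1g and Gata2 were also higher there, by less, with separate ranges. Cma1 (8762 to 10463 against 6808 to 7844 CPM) and Mitf (73.1 to 77.9 against 62.5 to 64.9 CPM) were higher in BALB/c, and the ranges of Cpa3 overlapped. No neutrophil marker of 6 reached 10 reads in a library, and 6 of 8 macrophage markers, including C1qa and Csf1r, had at most 3 reads in every library. The other macrophage markers, Adgre1 and Cd68, were higher in C57BL/6, and the summed macrophage level was 0.705 to 1.63 CPM against 13.4 to 13.9 CPM. The summed basophil level was 388 to 404 CPM in BALB/c against 490 to 501 CPM in C57BL/6. Its largest part in both strains was Cd200r3 (306 to 315 against 291 to 304 CPM), whereas Mcpt8 (81.2 to 88.2 against 180 to 186 CPM), Cebpa (0.0532 to 0.157 against 9.35 to 10.3 CPM) and Prss34 (0.0314 to 0.268 against 6.34 to 7.10 CPM) were higher in C57BL/6. Of the erythroid markers 3 of 5 reached 10 reads, with a sum of 9.12 to 12.1 against 3.60 to 4.48 CPM, and of the T or NK cell markers only Ncr1 did, with Cd3e and Cd3g at 0 in every library. The part of these differences in the results below was not tested, and in bulk RNA fewer cells of a type and less RNA per cell cannot be told apart.

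Most retrocopies are silent, because they land without the promoter of the parent gene, but some are transcribed from sequence near the place of insertion. The parent genes considered here are used by nearly every cell. Eno1 encodes alpha-enolase, which converts phosphoglycerate to phosphoenolpyruvate in glycolysis. Ahcy encodes adenosylhomocysteinase, which splits the S-adenosylhomocysteine left by methylation reactions and so keeps the methionine cycle running. Atp6v0c encodes the proteolipid subunit c of the rotor of the vacuolar proton pump (V-ATPase), which acidifies endosomes, lysosomes and secretory granules such as those of mast cells. Amd1 encodes adenosylmethionine decarboxylase, which supplies the aminopropyl groups for the polyamines spermidine and spermine.

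The genome shows how near each copy is to its gene. In the mouse genome build GRCm39 with GENCODE vM39, Eno1 lies at chr4:150321073-150337027 on the plus strand with 12 exons. Ahcy lies at chr2:154901230-154916422 on the minus strand with 10 exons, and Gm4737, which GENCODE calls Ahcyl, is a single exon at chr16:45973348-45975440 on the minus strand. Atp6v0c lies at chr17:24382835-24389703 on the minus strand with 3 exons, and Atp6v0c-ps2 is a processed pseudogene of 1 exon at chr6:37783021-37783485 on the plus strand. Amd1 lies at chr10:40162797-40178185 on the minus strand with 8 exons, and Amd2 is a single exon at chr10:35584671-35587888 on the minus strand of the same chromosome.

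The coding sequences of gene and copy were nearly identical. Over 1302 coding bases Eno1 and Eno1b differed at 8 (99.4% identity), over 1296 bases Ahcy and Gm4737 differed at 4 (99.7%), over 465 bases Atp6v0c and Atp6v0c-ps2 differed at 1 (99.8%), and over 1002 bases Amd1 and Amd2 differed at 1 (99.9%). None of these differences changed an encoded amino acid in the first 3 pairs, 1 did so in Amd2, and no copy had a stop codon within the frame of its gene. Counted from the first base of the start codon, and with the base of the gene first, the differences were C459T, G474A, C1050T and C1068T in Gm4737, T111C in Atp6v0c-ps2 and G796C in Amd2. Both members of 2 pairs are shown for 100 bases around such a difference, read from GRCm39 and written 5′ to 3′ on the strand of the gene. In this reference, gene and copy differ within these stretches only at these bases. Whether the genomes of the mice used here carry the same bases was not analysed. Capitals mark the bases that differ. The windows are Ahcy at chr2:154904128-154904227 (minus strand), Gm4737 at chr16:45974268-45974367 (minus), Atp6v0c at chr17:24383757-24383856 (minus) and Atp6v0c-ps2 at chr6:37783100-37783199 (plus), all of them within coding sequence or, for the pseudogene, its counterpart.
Ahcy: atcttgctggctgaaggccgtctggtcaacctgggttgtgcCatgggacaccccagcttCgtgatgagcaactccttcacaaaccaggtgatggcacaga
Gm4737: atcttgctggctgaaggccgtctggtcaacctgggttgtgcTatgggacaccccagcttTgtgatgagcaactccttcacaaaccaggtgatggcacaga
Atp6v0c: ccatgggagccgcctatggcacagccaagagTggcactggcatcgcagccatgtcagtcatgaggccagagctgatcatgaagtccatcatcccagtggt
Atp6v0c-ps2: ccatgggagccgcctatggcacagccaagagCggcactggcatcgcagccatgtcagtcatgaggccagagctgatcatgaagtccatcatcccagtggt

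A single read end of 100 bases often could not tell a gene from its copy, and the other end of the fragment, which can add differing bases, was not considered. Of all 100-base windows of the coding sequence, 68.6% were identical in Eno1 and Eno1b, 80.5% in Ahcy and Gm4737, 72.7% in Atp6v0c and Atp6v0c-ps2 and 88.9% in Amd1 and Amd2. The longest stretch without a difference was 725 coding bases in the enolase pair, 575 in the Ahcy pair, 354 in the Atp6v0c pair and 795 in the Amd1 pair. Of the 31-base words of the copy's transcript, between 80.9% (Eno1b) and 93.2% (Gm4737) also occurred in the transcripts of the gene. Salmon, with which the authors counted reads, divides reads that fit several transcripts between them by estimation. From such estimates it cannot be decided which member of a pair the shared reads of a library came from. The sequence of the BALB/c reads at the differing bases was not analysed here. Bases at which a strain differs from the reference genome were not analysed either, and their part in the division of reads was not tested. The levels, folds and shares of single members below are those of the assigned reads, and their SDs do not cover an error of assignment that all libraries of a strain share. The summed reads of a pair do not depend on how they were divided within it. A sum of TPM, which divides reads by transcript length, does depend on it.

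The windows before the transcription start were compared by their base composition. An upstream window from RefSeq (build GRCm38.p6) was found for 6 of the 8 genes, and not for Eno1b or Atp6v0c-ps2. The 250 bases before the start of Ahcy, at chr2:155074498-155074747, and of Gm4737, at chr16:46155078-46155327, both on the minus strand, are shown with each CG dinucleotide in capitals, since mammalian promoters of widely used genes are often rich in CG.
Ahcy upstream: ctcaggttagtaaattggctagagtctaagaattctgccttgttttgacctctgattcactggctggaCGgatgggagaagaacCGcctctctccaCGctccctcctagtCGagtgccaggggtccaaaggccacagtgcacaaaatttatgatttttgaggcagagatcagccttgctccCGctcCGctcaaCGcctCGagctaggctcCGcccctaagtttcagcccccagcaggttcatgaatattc
Gm4737 upstream: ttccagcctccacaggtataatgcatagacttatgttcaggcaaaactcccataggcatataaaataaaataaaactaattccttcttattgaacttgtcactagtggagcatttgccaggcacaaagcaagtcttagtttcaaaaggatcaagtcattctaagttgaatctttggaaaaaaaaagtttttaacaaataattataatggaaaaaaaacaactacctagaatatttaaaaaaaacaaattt
The window of Ahcy held 9 CG dinucleotides (which read the same on both strands) at 52.8% G and C, and that of Gm4737 held 0 at 29.6%. Amd1 had 19 and Amd2 had 2, while the 3 annotated starts of Eno1 had between 9 and 21 and those of Atp6v0c between 15 and 25. Over 32851 RefSeq promoters of this length the median was 6, and 40.3% held at least 9 and 81.2% at least 2. These counts describe the reference genome and say nothing of what binds there.

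All 8 members passed the filter on low reads, and in all 8 the ranges of BALB/c and C57BL/6 were separate. Among all tested genes 61.9% had separate ranges, 52.9% passed an adjusted p under 0.05, and 13.3% passed it with a fold above 2. Because the genes were chosen on this contrast, nothing is read from these counts for them. Copies were higher in BALB/c throughout and their genes in C57BL/6, while the sum of a pair differed much less between the strains than its copy did. The plot of gene and copy by library shows this division.

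**Figure D1:**
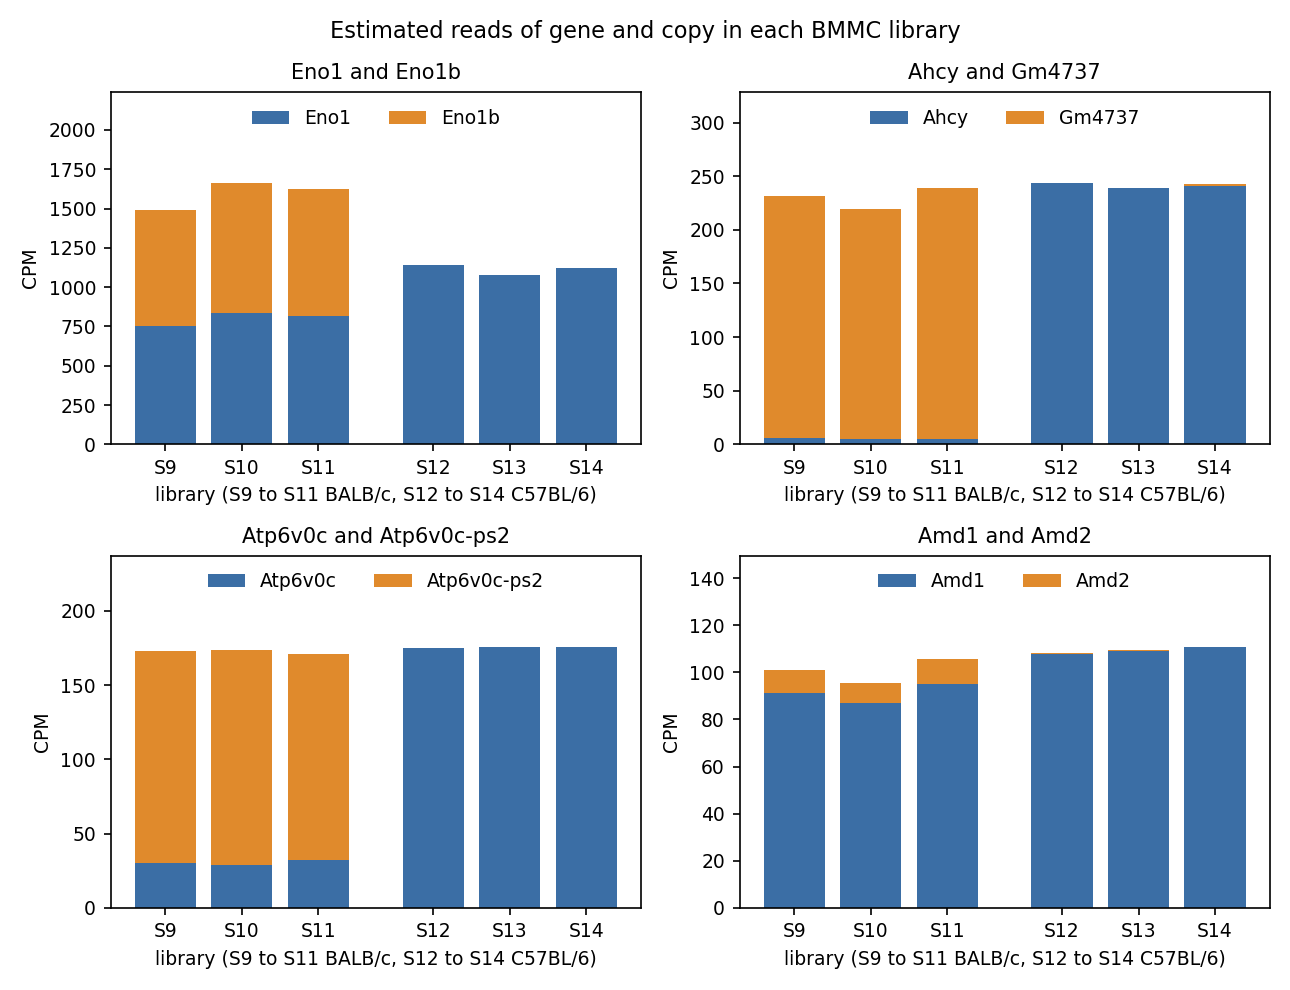
Level of gene (blue) and copy (orange) in each library, stacked, in CPM of the TMM-corrected library size, one panel per pair. The copies make up part of the bar in the BALB/c libraries S9 to S11, from 8.77 CPM of Amd2 in S10 to 826 CPM of Eno1b in S10, and are not visible or nearly so in the C57BL/6 libraries S12 to S14.

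The enolase pair had the most reads. Eno1b lies at chr18:48178402-48181479 of GRCm39 on the plus strand, with 2 exons of which 1 is coding, inside the long noncoding RNA G630055G22Rik, which was listed at 0 reads in all 6 libraries. Eno1 had 24024, 24853 and 30659 estimated reads in S9, S10 and S11, and 36429, 29086 and 39730 in S12, S13 and S14. Eno1b, whose product carries the same amino acid sequence, had 23476, 24629 and 30346 reads in the same BALB/c libraries, against 0, 4 and 0 across those of C57BL/6. Every BALB/c library thus divided its enolase reads in nearly equal parts between gene and copy, and no C57BL/6 library gave the copy more than a few reads. In CPM, Eno1 was 801 ± 41.5 (SD, n = 3) in BALB/c and 1112 ± 33.6 in C57BL/6, which is 1.39-fold higher in C57BL/6 (0.47 on the log2 scale). Eno1b was 790 ± 46.9 CPM in BALB/c, and with an estimated 3.57 reads in all C57BL/6 libraries together the ratio was 17968 (95% exact Poisson interval, taken for 4 whole reads, from 7285 to 68460, which covers counting error only). All of these reads were in S13, and without that library Eno1b was at least 8849-fold lower in C57BL/6, taking 3 counts per library as the floor.

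Per length, gene and copy stood level in BALB/c. In TPM, which divides reads by transcript length and sets every library to one total, Eno1 was 710 ± 30.9 and Eno1b 708 ± 35.8 in BALB/c, and Eno1 was 871 ± 45.8 in C57BL/6. The order of Eno1 and Eno1b in BALB/c was not resolved by these values, since S9 had more TPM on Eno1 (679 against 670) and S10 more on Eno1b (741.48 against 740.56). The summed pair was 1592 ± 88.4 CPM in BALB/c against 1113 ± 33.5 CPM in C57BL/6, with every BALB/c library above every C57BL/6 library. This was the only pair whose sum was lower in C57BL/6 under every scaling tried, by 0.52 on the log2 scale in CPM and by 0.70 in TPM.

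The main transcript of Eno1 held a like share in both strains, and the minor ones did not. Of its 3 deposited transcripts, that of 1831 bases held between 96.5% and 97.2% of the Eno1 reads in each of the 6 libraries. The transcript of 1802 bases had 0 reads in all BALB/c libraries and 1004, 192 and 740 reads in S12, S13 and S14. The transcript of 1755 bases had 723, 856 and 876 reads in S9, S10 and S11, and 0, 676 and 640 in S12, S13 and S14. The split between these minor transcripts varied more within C57BL/6 than the total did.

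In the Ahcy pair nearly all BALB/c reads were on the copy. Ahcy had 192, 156 and 203 reads in S9, S10 and S11 and 7778, 6479 and 8535 in S12, S13 and S14. Gm4737, a copy that can encode the same enzyme, had 7182, 6377 and 8770 reads in the same BALB/c libraries, against 0, 0 and 56 across those of C57BL/6. The strains exchanged one name for the other at much the same read number. Ahcy was 5.55 ± 0.408 CPM in BALB/c against 241 ± 1.97 CPM in C57BL/6, a 43.5-fold higher level in C57BL/6. Gm4737 was 224 ± 9.74 CPM in BALB/c against 425-fold lower in C57BL/6. All C57BL/6 reads of Gm4737 were in S14, and without it the copy was at least 2190-fold lower, with the floor as above.

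The sum of Ahcy and Gm4737 was 230 ± 9.86 CPM in BALB/c against 242 ± 2.09 CPM in C57BL/6. The BALB/c libraries had 232, 219 and 239 CPM and the C57BL/6 libraries 243, 239 and 243 CPM, so that the highest BALB/c value (238.7) lay just below the lowest C57BL/6 value (239.5). The difference of the sum was 0.07 on the log2 scale in CPM, and it turned to −0.07 with plain library sizes and to −0.41 in TPM. In TPM the counts are divided by length, and the deposited transcript of Gm4737 has 2093 bases against 2560 of Ahcy. Per length, Gm4737 in BALB/c (167 ± 6.37 TPM) was above Ahcy in C57BL/6 (128 ± 4.04 TPM).

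For the V-ATPase subunit the copy again held most BALB/c reads. Atp6v0c had 955, 865 and 1212 reads in S9, S10 and S11 and 5583, 4754 and 6208 in S12, S13 and S14. Atp6v0c-ps2, annotated as a pseudogene, had 4549, 4316 and 5219 reads in the same BALB/c libraries, against 0 in each C57BL/6 library. The gene kept part of its reads in BALB/c, unlike the copy in C57BL/6. Atp6v0c was 30.4 ± 1.64 CPM in BALB/c against 175 ± 0.506 CPM in C57BL/6, 5.76-fold higher in C57BL/6, and Atp6v0c-ps2 was 142 ± 3.05 CPM in BALB/c against at least 1473-fold lower in C57BL/6. The sum was 173, 174 and 171 CPM in BALB/c against 175, 176 and 175 CPM in C57BL/6. Its difference was 0.02 on the log2 scale in CPM, −0.12 with plain library sizes and −0.22 in TPM.

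Atp6v0c has 6 deposited transcripts, and the share of the main one differed between the strains. The transcript of 1197 bases held 90.3%, 88.3% and 91.0% of the Atp6v0c reads in S9, S10 and S11 and 98.7%, 96.2% and 97.3% in S12, S13 and S14. The 5 others held the rest, each at most 6.40% in any library. The genome model of Atp6v0c-ps2 covers 465 bases, the length of the coding sequence, whereas its deposited transcript has 1133 bases, so its outer parts were not compared with Atp6v0c.

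In the Amd1 pair the gene kept most reads in both strains. Amd1 had 2901, 2590 and 3569 reads in S9, S10 and S11 and 3443, 2952 and 3917 in S12, S13 and S14. Amd2 had 320, 261 and 412 reads in the same BALB/c libraries, against 11, 6 and 8 across those of C57BL/6. Amd2 was the only copy with reads in every C57BL/6 library, and also the copy with the fewest reads in BALB/c. Amd1 was 91.0 ± 4.02 CPM in BALB/c against 109 ± 1.44 CPM in C57BL/6, 1.20-fold higher in C57BL/6, and Amd2 was 9.92 ± 1.10 CPM in BALB/c against 0.264 ± 0.0640 CPM in C57BL/6, 37.6-fold lower in C57BL/6. Per length, Amd1 was 42.4 ± 1.58 TPM in BALB/c and 45.0 ± 1.07 TPM in C57BL/6, a smaller difference than in CPM. The sum of the pair was 101 ± 5.12 CPM in BALB/c against 109 ± 1.38 CPM in C57BL/6, a difference of 0.12 on the log2 scale that became −0.03 with plain library sizes and −0.06 in TPM.

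The share of a pair's reads on its copy separated the pairs within BALB/c. It was 97.6% ± 0.170 (SD, n = 3) for Gm4737, 82.4% ± 1.10 for Atp6v0c-ps2, 49.6% ± 0.194 for Eno1b and 9.81% ± 0.602 for Amd2. The BALB/c libraries of each pair lay close together, and the ranges of the 4 pairs did not overlap. In C57BL/6 the highest library of each copy had 0.652% for Gm4737 (S14), 0.311% for Amd2 (S12), 0.0123% for Eno1b (S13) and 0 for Atp6v0c-ps2. Counted by TPM instead of reads, the BALB/c shares were 98.0%, 83.1%, 49.9% and 9.83% in the same order of pairs.

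**Figure D2:**
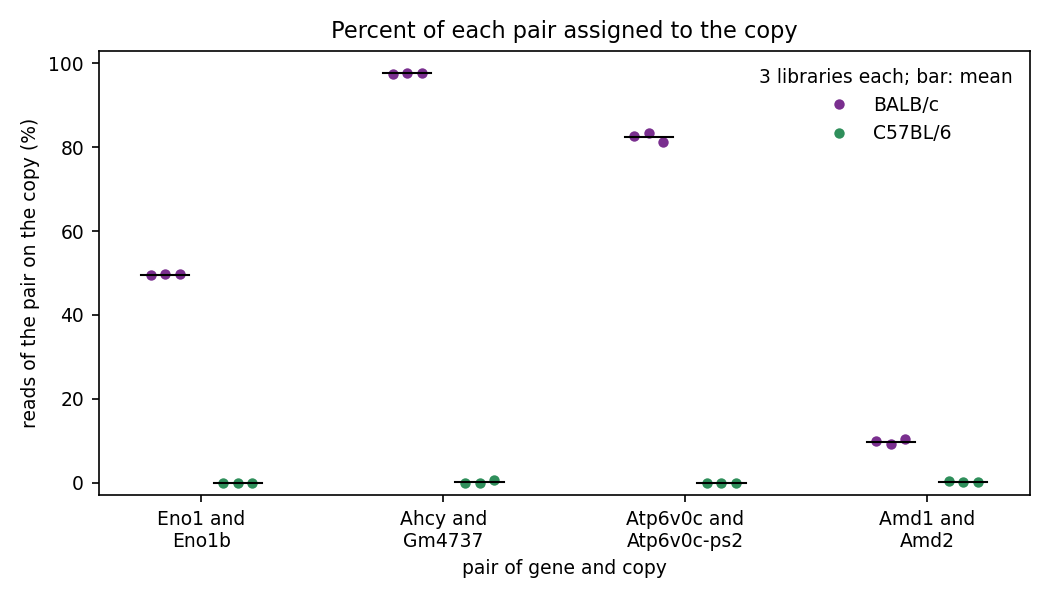
Percent of the estimated reads of each pair that were assigned to the copy, with 1 point per library, BALB/c in purple, C57BL/6 in green and the mean of 3 libraries as a bar. The BALB/c means run from 9.81% (Amd2) to 97.6% (Gm4737), and no C57BL/6 library is above 0.652%.

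The sums of the pairs depended on the scaling more than on any single library. Leaving out each library in turn kept the log2 ratio of C57BL/6 over BALB/c between −0.56 and −0.49 for the enolase pair, between 0.04 and 0.10 for the Ahcy pair, between 0.02 and 0.03 for the Atp6v0c pair and between 0.08 and 0.15 for the Amd1 pair. Plain library sizes moved the median log2 fold change of all tested genes from −0.01 to −0.15, and the sums moved with it. Relative to that median the sums of Ahcy, Atp6v0c and Amd1 lay on the C57BL/6 side with plain library sizes, and the enolase sum on the BALB/c side. In TPM the log2 ratios of the sums were −0.41 (Ahcy), −0.22 (Atp6v0c) and −0.06 (Amd1). The median over all genes was −0.15 with limma on log2(TPM + 1), which adds 1 and so is not the same scale. TPM sums also change with the division of reads between members of unlike length, so no side of that median is given.

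**Figure D3:**
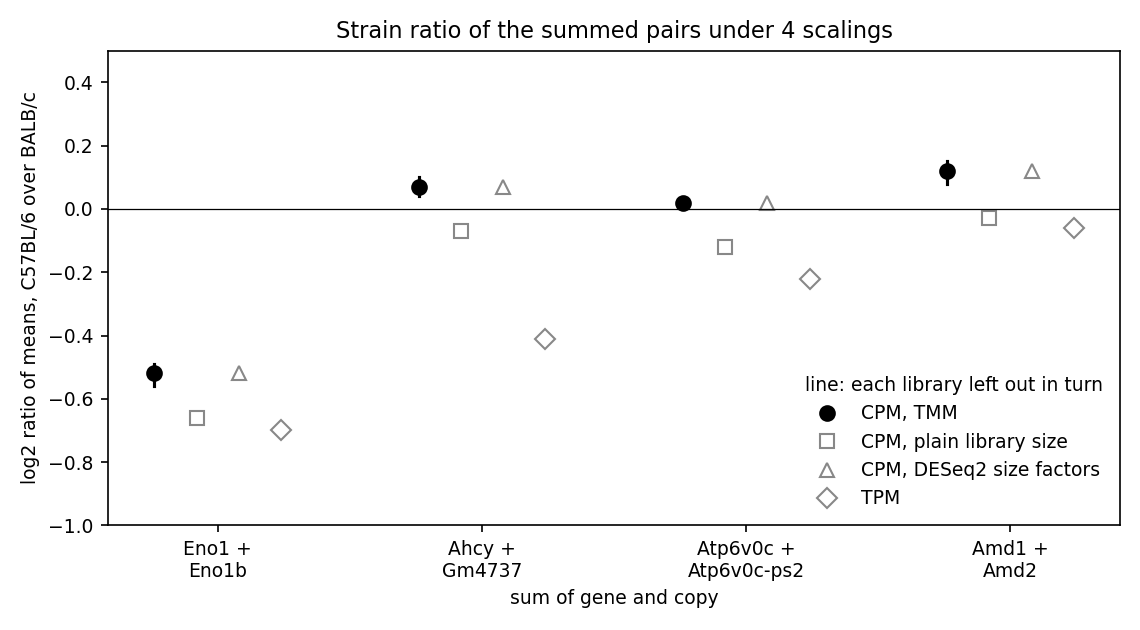
Log2 ratio of the strain means, C57BL/6 over BALB/c, of the summed CPM or TPM of each pair under 4 scalings, with a line for the range when each library is left out under TMM scaling. The enolase pair lies at −0.52 to −0.70, and the other sums lie above 0 with TMM or DESeq2 size factors and below 0 with plain library sizes or TPM.

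Other intronless copies of the 4 genes exist in the genome. At 90% identity or more over 80% of the coding sequence, GRCm39 held 6 such loci for Eno1, 3 for Ahcy, 2 for Atp6v0c and 7 for Amd1. For each gene exactly 1 of these loci, the copy described here, was matched to a transcript in the deposited tables. Among the others were Gm4735 on chromosome 2, 99.6% identical to the Eno1 coding sequence, and Gm9826 on chromosome 1, 99.2% identical to Ahcy. Another was Amd-ps3 on chromosome 18, which at 99.9% identity was as near to Amd1 as Amd2. These other loci were not analysed here, and whether reads from them were counted on the 8 genes was not tested.

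Some genes followed a parent gene closely over the 6 libraries, as measured by Pearson's r of log2 CPM among tested genes with a mean of at least 10 CPM. The 2 genes most like Eno1 were Rpl23 (r = 0.9988) and Vipas39 (r = 0.9987), and those most like Amd1 were Utp11 (r = 0.9984) and Slc1a5 (r = 0.9978). The genes most like Ahcy were Smap2 and Atp8b5, both at r = 0.9999, and those most like Atp6v0c were Tmtc2 (r = 0.9998) and Rnf130 (r = 0.9997). All points share the 2 strains, so any gene with a steady difference between strains scores high: 404 genes reached r = 0.99 with Ahcy and 380 with Atp6v0c, against 58 with Eno1 and 34 with Amd1.

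The other genes of the pathways asked whether the strains differed beyond these pairs. They were tested with edgeR's quasi-likelihood test over all 12461 genes, with Benjamini-Hochberg adjustment. Called genes had an adjusted p under 0.05 and a fold above 2. The 8 genes of the pairs are in no list, so the most abundant genes named below are those of a list without them. Of all genes, 13.3% were called, with C57BL/6 above in 7.73% and BALB/c above in 5.54%. By the adjusted p alone C57BL/6 was above in 27.0% (3361 genes) and BALB/c in 25.9% (3227 genes). This balance depended on the scaling: C57BL/6 was above in 2285 genes and BALB/c in 5520 with plain library sizes, and in 2035 and 5834 with limma on log2(TPM + 1).

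In glycolysis, 20 of 28 listed genes were tested, of which 3 were called (15.0%), all higher in BALB/c. These were Eno2 and Aldoc, the enolase and aldolase forms best known from neurons, and Slc16a3, a lactate exporter. Eno2 had 210 to 309 reads in BALB/c and 5 to 12 in C57BL/6, with a log2 fold change of −4.86 (SE 0.21, edgeR adjusted p = 1.95e-07), which was −2.26 with limma on log2(TPM + 1), a scale that understates the change of low genes. Aldoc was 79.7 ± 7.40 CPM in BALB/c against 31.7 ± 2.51 CPM in C57BL/6 (log2 fold change −1.33, SE 0.08, edgeR adjusted p = 1.21e-06). Slc16a3 was 48.3 ± 9.71 against 23.5 ± 1.79 CPM (−1.04, SE 0.13, edgeR adjusted p = 0.000182), and its fold fell below 2 without S9 (−0.89) or without S14 (−0.97). By the adjusted p alone BALB/c was above in 14 of the 20 genes and C57BL/6 in 2, and the list's median log2 fold change was −0.32 against −0.01 over all genes.

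The most abundant genes of the glycolysis list, without Eno1 and Eno1b, were Gapdh, Ldha and Aldoa. They encode the dehydrogenase of glyceraldehyde phosphate, the dehydrogenase that makes lactate, and the ubiquitous aldolase. Gapdh was 2273 ± 91.0 CPM in BALB/c against 1894 ± 57.3 CPM in C57BL/6 (log2 fold change −0.26, edgeR adjusted p = 0.000495). Ldha was 1188 ± 31.9 and 979 ± 14.1 CPM (−0.28, edgeR adjusted p = 0.000134), and Aldoa was 1046 ± 52.2 and 884 ± 10.2 CPM (−0.24, edgeR adjusted p = 0.00104). All 3 differences were under the 2-fold limit. Gapdh is 1 of 5 tested glycolysis genes with intronless copies of at least 95% identity in the genome, and Ldha is another. Whether reads of such copies were counted on these genes was not tested. Of the Gapdh copies, Gm12070 (99.9% identity) had up to 539 reads in a BALB/c library and up to 209 in a C57BL/6 library. Gm5069 (95.5% identity) had up to 19.2 and 18.1. With plain library sizes 16 glycolysis genes were higher in BALB/c and 2 in C57BL/6 by the adjusted p alone, and with limma on log2(TPM + 1) 17 and 2 (Tpi1, the triosephosphate isomerase, at a log2 fold change of −0.94, passed the 2-fold limit in both), beside 5520 and 2285 or 5834 and 2035 of all genes.

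In the methionine cycle, 14 of 20 listed genes were tested, of which 2 were called (14.3%), both higher in BALB/c. Adk, the adenosine kinase that removes the adenosine set free by the Ahcy reaction, was 36.6 ± 1.87 CPM in BALB/c against 15.3 ± 0.955 CPM in C57BL/6 (log2 fold change −1.26, SE 0.07, edgeR adjusted p = 6.03e-07). Cth, the cystathionine lyase that turns cystathionine into cysteine, had 65 to 86 reads in BALB/c and 16 to 19 in C57BL/6 (−2.10, SE 0.22, edgeR adjusted p = 4.86e-05, and −1.10 with limma on log2(TPM + 1)). The strains did not overlap in either gene. The most abundant members were the amino acid transporter Slc7a5 (−0.27, edgeR adjusted p = 0.000287), the adenosylmethionine synthetase Mat2a (0.20, edgeR adjusted p = 0.00995) and Ahcyl1, a relative of Ahcy (−0.04, edgeR adjusted p = 0.51), none of them past the 2-fold limit. Mat2a was the only tested gene of the list with an intronless copy of at least 95% identity in the genome (95.1%).

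By the adjusted p alone C57BL/6 was above in 3 genes of the methionine cycle and BALB/c in 6, with a median log2 fold change of −0.11. With plain library sizes or limma on log2(TPM + 1) this was 1 and 9, while all genes moved the same way, to 2285 and 5520 or 2035 and 5834.

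Of the proton pump, 19 of 24 listed genes were tested, of which 2 were called (10.5%), 1 in each direction. Atp6v0e2, an isoform of the small membrane subunit e, had 207 to 310 reads in BALB/c and 0 to 2 in C57BL/6, and was 7.44 ± 0.881 CPM against 0.0209 ± 0.0361 CPM (edgeR adjusted p = 2.98e-07). Atp6v0d2, the d subunit isoform known from osteoclasts and kidney, had 11 to 27 reads in BALB/c and 60 to 89 in C57BL/6 (log2 fold change 1.90, SE 0.30, edgeR adjusted p = 0.000677), a difference that fell to 0.70 with limma on log2(TPM + 1) and so was no longer called. Both are minor isoforms here beside Atp6v0e (110 and 111 CPM in BALB/c against C57BL/6) and Atp6v0d1 (199 and 190 CPM) by reads, a comparison that does not correct for length.

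The most abundant proton pump genes by reads were Atp6ap1, an accessory subunit (log2 fold change 0.08, edgeR adjusted p = 0.108), Atp6v0d1 (−0.07, edgeR adjusted p = 0.203) and Atp6v0b (0.37, edgeR adjusted p = 0.00016). Atp6v0b encodes subunit c″, the relative of the Atp6v0c product in the same rotor, and was 152 ± 1.52 CPM in BALB/c against 196 ± 11.6 CPM in C57BL/6. By the adjusted p alone C57BL/6 was above in 8 genes and BALB/c in 3, with a median of 0.01. That order turned with the scaling, to 3 and 10 with plain library sizes and 4 and 11 with limma on log2(TPM + 1), as did that of all genes, to 2285 and 5520 and to 2035 and 5834.

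In the polyamine and methylthioadenosine salvage list, 19 of 24 genes were tested, of which 1 was called (5.26%). Paox, an oxidase that breaks down acetylated polyamines, was 20.4 ± 2.50 CPM in BALB/c against 7.25 ± 0.485 CPM in C57BL/6 (log2 fold change −1.49, SE 0.11, edgeR adjusted p = 4.01e-06). Paox is 1 of 7 tested genes of the list with intronless copies of at least 95% identity in the genome. Its copy is 99.9% identical. Oaz1, Eif5a and Odc1 are others, and whether reads of such copies were counted on these genes was not tested. The most abundant genes were Eif5a, the translation factor that carries hypusine made from spermidine (−0.08, edgeR adjusted p = 0.0992), the antizyme Oaz1 (−0.04, edgeR adjusted p = 0.459) and Odc1, the ornithine decarboxylase that starts polyamine synthesis. Odc1 was 126 ± 13.9 CPM in BALB/c against 201 ± 11.2 CPM in C57BL/6 (0.68, edgeR adjusted p = 9.01e-05), under the 2-fold limit. By the adjusted p alone C57BL/6 was above in 6 genes and BALB/c in 5, with a median of −0.04, and this became 4 and 12 with plain library sizes and with limma on log2(TPM + 1), beside 2285 and 5520 or 2035 and 5834 of all genes.

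The plot of the 4 lists shows most genes within the 2-fold limits. The share of called genes ran from 5.26% (polyamine) to 15.0% (glycolysis) beside 13.3% of all genes, and no list as such was tested.

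**Figure D4:**
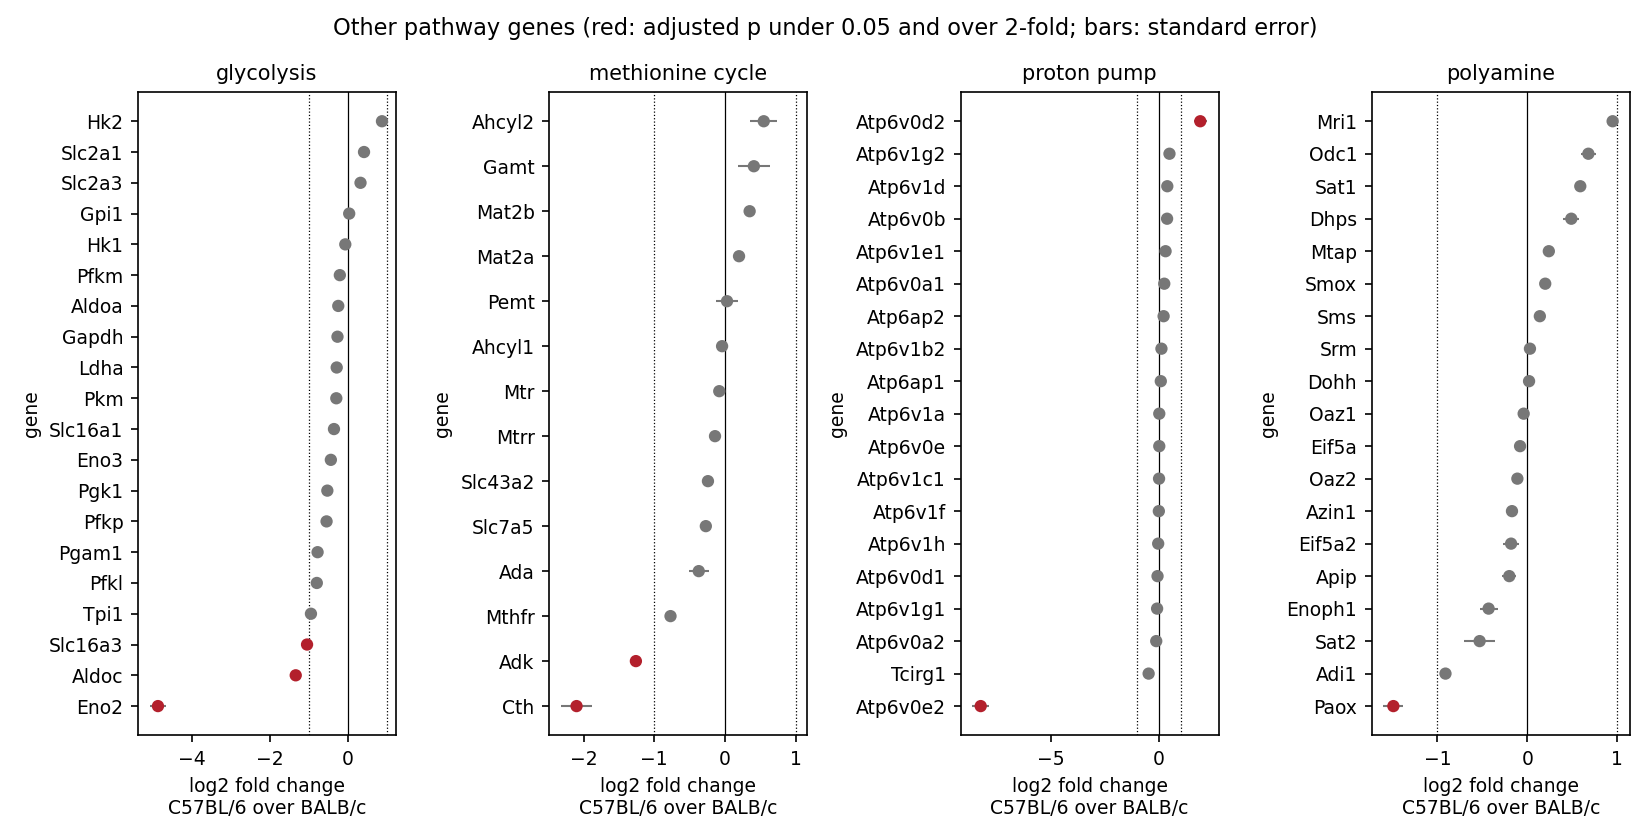
Log2 fold change (C57BL/6 over BALB/c) and standard error for each tested gene of the 4 pathway lists, without the 8 genes of the pairs, with red points for called genes, dotted lines at 2-fold and a different scale in each panel. Eno2 (−4.86) and Atp6v0e2 (−8.22, fitted with 0 to 2 reads in C57BL/6 and therefore no measure of size) lie farthest from 0.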

How the data were processed

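RNA of 6 BMMC libraries was analysed. Per the labels, the authors checked reads with FastQC 0.11.5 and quantified transcripts with Salmon 0.8.2 against mouse build GRCm39. The deposited tables give, per transcript, the length, the effective length, an estimated count of reads that need not be whole, and a TPM value, in which the authors' software divides counts by effective length before setting every library to one total. The methods name Ensembl transcripts, while the tables list RefSeq accessions.

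Accessions were matched without version to symbols of a RefSeq table (GRCm38.p6). Of 129698 transcripts 106440 (82.1%) matched, and the others, with 2.69% to 3.12% of a library's reads, were not used. Sums by gene were rounded to whole counts for the tests, while CPM, ratios and shares of the 8 members and of the pairs use the unrounded estimates. Printed reads of members are rounded. CPM use TMM-corrected library sizes (factors 0.940 to 1.05). Genes past edgeR's filter (minimum count 10) were tested with edgeR 4.0.16 (quasi-likelihood, R 4.3.3, strain as the only term). The test was first run on simulated data. DESeq2 1.42.0, limma 3.58.1 on log2(TPM + 1), plain library sizes, no filter, the adjusted p alone, unmatched transcripts kept, curated transcripts alone and each library left out were the alternatives. Ratios of members are ratios of strain means, and a floor of 3 counts per library stands for 0.

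Sequences were aligned with BLAST on GENCODE vM39 models of GRCm39. The coding sequence of Amd1 was ended at its first stop codon in frame. Gm4737 was placed by an exact match of its RefSeq promoter sequence.

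The members and lists were chosen with earlier results of these data known. Named are the 8 members, every called gene of a list and its 3 most abundant genes, the 2 genes most like each parent gene, and other listed copies. Atp6v0e, the copies outside the pairs and the genes whose call depends on a setting were named after their values were seen.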

Additional observations from a re-analysis of the deposited data

How the results depend on the processing

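No paired analysis was possible because the labels of the strains share no replicate numbers. Over all genes, 1653 were called, 799 with limma on log2(TPM + 1) and 6588 by the adjusted p alone. By the adjusted p alone the lists held 16 (glycolysis), 9 (methionine cycle), 11 (proton pump) and 11 (polyamine) genes in place of 3, 2, 2 and 1. With plain library sizes or limma the glycolysis list held 4 called genes, as Tpi1 passed the 2-fold limit. With limma the proton pump list held 1 and the polyamine list 2, which was also its number with plain library sizes, as Adi1 (log2 fold change −0.91) passed the 2-fold limit there. The log2 ratios of the summed pairs were −0.66 (Eno1), −0.07 (Ahcy), −0.12 (Atp6v0c) and −0.03 (Amd1) with plain library sizes and −0.70, −0.41, −0.22 and −0.06 in TPM, against −0.52, 0.07, 0.02 and 0.12. The cause of these shifts was not tested. DESeq2 size factors moved no summed pair beyond the spread between libraries. Leaving out a library kept the numbers of called genes in each list within 1.5 times. All matched transcripts of the 8 members are curated, so curated transcripts alone gave the same sums by construction and tested nothing here. The 3 libraries per strain limit the precision of all tests, and the reads shared by gene and copy limit that of each member.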
